A study of Mus musculus with 3 samples.

Results

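Basophils were examined among single cells from mouse lung. The cells were chosen by their own counts: of the 21425 cells with more than 200 genes and under 10% mitochondrial UMIs (unique molecular identifiers, 1 per captured transcript), those with at least 2 UMIs, making up at least 0.1% of the cell's UMIs, of the basophil and mast cell genes Mcpt8, Cpa3, Ms4a2, Fcer1a and Gata2. Cells with any UMI of Cd3e, Cd79a, Cdh5 or Cldn5, or with 2% or more of UMIs on S100a8 and S100a9, were left out, since these mark T cells, B cells, endothelium and neutrophils. The rule found 163 cells, which are called basophil-marked cells here. There were 3 libraries, 1 for each group, and each pooled cells of 2 mice. The naive library came from untouched left lungs of C57BL/6J mice. In the other libraries, left lungs of CD45.2+ C57BL/6J donors were kept for 60 minutes at 4°C and 45 minutes at 28°C, transplanted into CD45.1+ C57BL/6J recipients and taken after 2 hours or 3 days of reperfusion. The labels name C57BL/6J for both, while the study's methods list their CD45.1 mice as B6.SJL-Ptprca Pepcb/BoyJ. Donor and recipient were syngeneic, and for these groups the labels name no other allele or agent and no age. Cells were sorted for CD45.1, so that transplant libraries hold cells of the recipient. The naive library carries the same sort label, although its mice hold no recipient cells.

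Basophils are rare granulocytes that arise in bone marrow and circulate in blood, while mast cells mature and stay in tissues. Both carry the high-affinity IgE receptor, whose alpha chain is encoded by Fcer1a and beta chain by Ms4a2, and both store histamine. Crosslinked IgE, interleukin 3, interleukin 18 and interleukin 33 can activate basophils, which are known as a source of interleukins 4, 13 and 6, and a basophil population shaped by local cytokines has been described in the lung.

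Most markers fixed for mast cells were not detected. Of 11 mast cell genes, 9 had no UMI in any basophil-marked cell of the 3 libraries, including the proteases Cma1, Mcpt4, Tpsb2 and Tpsab1. Levels are in CPM, a gene's UMIs summed over these cells of a library and scaled to 1000000 summed UMIs. The limit that a count of 0 allows (3 counts per library) was 20.3 CPM for naive cells, 42.2 at 2 hours and 5.78 at 3 days. Kit, the stem cell factor receptor of mast cells, had 3, 1 and 11 UMIs. The remaining gene, Slc18a2, encodes the vesicle transporter of histamine and is shared with basophils. Among genes that the rule did not use, Cd200r3, a receptor of basophils and mast cells, was present in 19 of 19 cells of the naive library, 26 of 53 at 2 hours and 76 of 91 at 3 days. The eosinophil genes Epx, Prg2 and Il5ra had no UMI. Ccr3, shared by eosinophils and basophils, had 10, 4 and 22. Of 6 basophil genes, 4 were more than 2-fold above other cells in all 3 libraries with 10 CPM added, where 6.19% of all genes were. They were Cd200r3, Il3ra, Cebpa and the rule gene Mcpt8, while Prss34 and Itga2 were not among them. Thus the cells carried part of the basophil list, and transcripts of mast cell proteases were not detected at this depth.

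Within the rule, the 5 genes took a median of 21 UMIs per cell in the naive library (range 12 to 74), 5 at 2 hours (2 to 32) and 22 at 3 days (4 to 285). At 2 hours, 10 of 53 cells entered with exactly 2 UMIs. Just inside the share limit, between 0.1% and 0.2% of UMIs, lay 2, 6 and 12 cells in the order naive, 2 hours, 3 days. Just outside it, between 0.05% and 0.1%, lay 1, 0 and 3 cells with at least 2 UMIs of the 5 genes. A further 7, 11 and 44 cells that met the conditions on other cell types held exactly 1 such UMI, which the rule leaves out at any share. The conditions on other cell types removed 2 further cells at 2 hours and 22 at 3 days, 14 of the latter by Cd3e or Cd79a. At least 3 of the 5 genes were detected in 18 of 19, 16 of 53 and 83 of 91 cells. Cyp11a1 or Cd200r3, outside the rule, was detected in 19 of 19, 52 of 53 and 89 of 91.

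Basophil-marked cells made up 0.723% of the naive library (19 of 2628 cells, exact 95% binomial interval 0.436% to 1.13%), 0.515% at 2 hours (53 of 10283, 0.386% to 0.674%) and 1.07% at 3 days (91 of 8514, 0.861% to 1.31%). The intervals at 2 hours and 3 days did not overlap, and the naive interval overlapped both. All intervals here cover counting error only, and with 1 library per group no difference between groups could be tested. Depth differed: the median basophil-marked cell held 7329 UMIs in naive lungs, against 1207 at 2 hours and 5364 at 3 days. When every cell was thinned to 500 UMIs, the shares were 0.419%, 0.377% and 0.681%, with 469 shallower cells left out at 2 hours. Neutrophils held 12.7%, 33.3% and 25.9% of cells. With all cells at or above 2% of UMIs on S100a8 and S100a9 out of the denominator, which adds a few cells that also met the T cell definition, the shares were 0.83%, 0.776% and 1.45%. Thus the share at 3 days was above that at 2 hours in each of these counts.

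**Figure D1:**
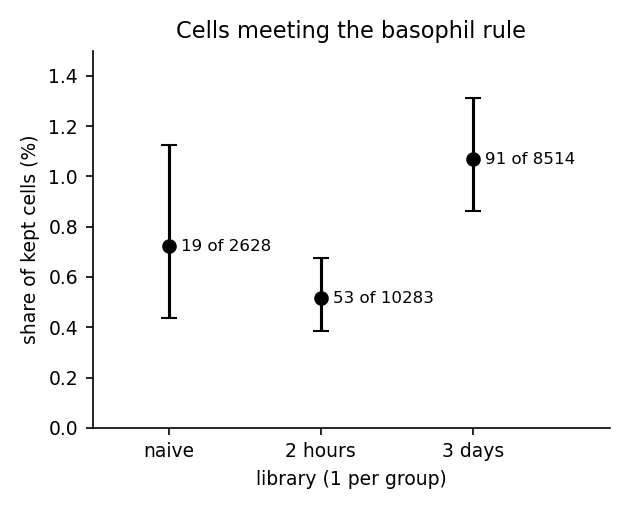
Share of kept cells that met the basophil rule (y axis, percent) in each of the 3 libraries (x axis), with exact 95% binomial intervals that cover counting error only. The 3-day point at 1.07% lies above the 2-hour interval, and the naive interval reaches from 0.436% to 1.13%.

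A few cells stood apart. One 3-day cell with 26593 UMIs, the largest total of any basophil-marked cell, held 194 Lyz2, 129 Fn1 and 59 Cybb UMIs, which are macrophage genes, beside 25 Cyp11a1 and 48 Hdc UMIs. It carried 112 of 112 Mmp12 UMIs and 148 of 153 Lpl UMIs at 3 days. Another 3-day cell held 65 Ppbp, 46 Pf4 and 20 Gp9 UMIs, which are platelet genes, and entered by 4 Gata2 UMIs with none of the other 4 rule genes, Cyp11a1 or Hdc. Where leaving out these cells moved a list count or a level at 3 days by over 1.5 times, the value without them is also given. Scrublet, a doublet caller, marked 0, 3 and 1 basophil-marked cells in the naive, 2-hour and 3-day libraries, and the cell with macrophage genes was not among them. No barcode of a basophil-marked cell recurred in another library. Over all cells, the naive and 2-hour libraries shared 8 barcodes, the naive and 3-day libraries 1, and the 2-hour and 3-day libraries 23.

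Markers of other cell types were mostly low but moved between libraries. The 7 neutrophil genes summed to 217, 1602 and 1278 CPM in basophil-marked cells in the order naive, 2 hours, 3 days, with 1, 2 and 0 of 7 genes at 0. S100a9 was the most abundant in each library, and the sum in all other cells was 10071, 19648 and 25255. The rule left out cells with 2% or more of UMIs on S100a8 and S100a9, so their level in basophil-marked cells was capped beforehand. In basophil-marked cells, 1 cell held 13 of the 32 neutrophil-gene UMIs of the naive library and 1 held 54 of the 114 at 2 hours, and without them the sums were 139 (83.9 to 218) and 888 (678 to 1143). The 9 monocyte and macrophage genes summed to 522, 422 and 1600.4, led by Fn1, and 6, 5 and 0 of 9 were at 0. One naive cell held 37 of 77 of these UMIs, and without it the naive sum was 286 (205 to 389.8). The 6 T cell genes summed to 40.7, 70.3 and 94.5 with 4, 4 and 2 of 6 at 0, among them Cd3e by the rule. Trac and Lat, a signalling adaptor that basophils also use, had 3 UMIs each in the naive library, and Lat led in the others. The 7 B cell genes reached 47.5, 14.1 and 44.3 with 3, 6 and 2 of 7 at 0, Cd79a among them by the rule, and the most abundant was Cd79b in the naive and 3-day libraries and Ms4a1 at 2 hours. The 6 NK cell genes gave 169.5, 112 and 73.3, led by Nkg7, with 2, 4 and 2 of 6 at 0 and 14 of the 25 naive UMIs in 1 cell. The 6 dendritic genes gave 0, 14.1 and 5.78 with 6, 5 and 4 of 6 at 0, and the 4 epithelial genes 6.78, 14.1 and 9.64 with 3, 3 and 2 of 4 at 0, Scgb1a1 leading the latter in each library. Of 5 endothelial genes only Pecam1 was detected, at 305, 98.4 and 121, with Cdh5 and Cldn5 at 0 by the rule, and the 5 erythroid genes gave 0, 14.1 and 11.6. The platelet list gave 258, 365 and 599.7, led by Itga2b. Without the 2 marked cells, the 3-day sums were 277 (232 to 327) for platelet genes, 1004 (917 to 1097) for monocyte and macrophage genes and 4.1 (0.496 to 14.8) for erythroid genes. Fn1 was then at 703 CPM at 3 days in place of 910.1, and Lyz2 at 193 in place of 567. Outside the cell with platelet genes, Pf4 had 5 UMIs at 3 days and Ppbp, Gp9 and Gp1bb had none. The part of these levels in the values that follow was not tested.

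Against all other cells of the same library, 347 of 5605 genes averaging at least 20 CPM (6.19%) were more than 2-fold higher in basophil-marked cells in all 3 libraries, after adding 10 CPM to each level, and 639 (11.4%) were more than 2-fold lower. The rule picked the cells on this contrast, so it is described and not tested. The genes that stood out most beyond the rule were Cyp11a1 (chr9:58006411-58027023, GRCm38), which encodes the enzyme that begins steroid synthesis, Slc18a2, Hgf, a growth factor, Cd200r3 and the granzyme gene Gzmc. Cyp11a1 was at 1797 CPM in the naive library (1587 to 2027), 2726 at 2 hours (2356 to 3138) and 2007 at 3 days (1887 to 2133), against 1.7, 4.13 and 5.5 in the other cells. Hgf was at 2156 (naive), 1082 (2 hours) and 1265 CPM (3 days), against 9.32, 6.38 and 10.2 elsewhere. Thus these transcripts were nearly absent elsewhere. Klf5, a zinc finger transcription factor, was at 420.4, 576 and 646 CPM in the order naive, 2 hours, 3 days. Cdh1, which encodes E-cadherin, was at 1051, 337 and 561. Rgs1, a regulator of G protein signalling, Gzmb, Hs3st1, an enzyme of heparan sulfate modification, and Itga2b, the integrin alpha chain best known from platelets, were also among the first 15. Csf2rb2, a beta chain of the interleukin 3 receptor, was at 793 (naive), 913 (2 hours) and 995 CPM (3 days), against 21.5, 20.4 and 36.6 in other cells. Tbc1d4, which encodes a Rab GTPase-activating protein, and the ubiquitin ligase gene Nedd4 completed the 15.

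**Figure D2:**
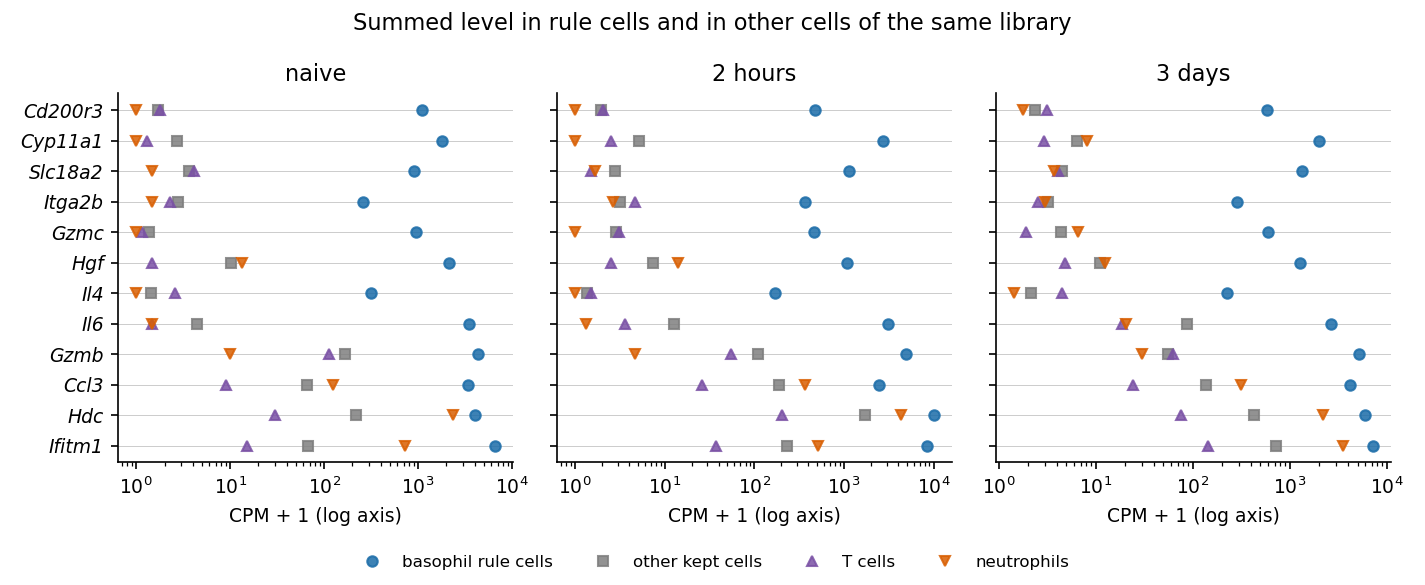
Level of 12 genes outside the rule, in CPM plus 1 on a log axis, summed over basophil-marked cells, all other kept cells, T cells and neutrophils of each library. Cd200r3, Cyp11a1, Il4 and Il6 are far to the right in basophil-marked cells only, while Hdc and Ifitm1 are also high in neutrophils.

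GATA2, the transcription factor encoded by the rule gene Gata2, binds GATA letters, and Gata2 was at 1410.4 (naive), 2740.1 (2 hours) and 2127 CPM (3 days). The promoters of the 5 rule genes and the first 15 were therefore searched for the letters AGATAA, for their variant AGATAG, for the form TGATAA and for its variant TGATAG, each on both strands, in RefSeq windows from 250 bases before to 50 after a start (GRCm38.p6). Of 17 genes with a window, 9 held at least 1 match (52.9%), as did 33% of all 27025 genes and 29.8% of all 32851 windows. A match is only these letters, no test of the difference was made, and a gene without one may hold them elsewhere. The windows of Ms4a2 (chr19:11623670-11623969, minus strand) and Cd200r3 (chr16:44943428-44943727, plus strand) held 3 matches each, the most of these genes, and that of Cpa3 (chr3:20242132-20242431, minus strand), a mast cell and basophil carboxypeptidase, held 1 at 46 bases before the start. They are shown as examples, with matches in capitals, and Slc18a2, whose window held 2 matches, is not shown.

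Ms4a2: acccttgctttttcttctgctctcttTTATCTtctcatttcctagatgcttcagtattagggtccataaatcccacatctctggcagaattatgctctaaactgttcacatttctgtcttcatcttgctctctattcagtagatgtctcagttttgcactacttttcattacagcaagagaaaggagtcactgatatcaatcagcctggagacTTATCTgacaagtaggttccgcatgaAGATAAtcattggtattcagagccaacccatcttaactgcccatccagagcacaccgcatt

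Cd200r3: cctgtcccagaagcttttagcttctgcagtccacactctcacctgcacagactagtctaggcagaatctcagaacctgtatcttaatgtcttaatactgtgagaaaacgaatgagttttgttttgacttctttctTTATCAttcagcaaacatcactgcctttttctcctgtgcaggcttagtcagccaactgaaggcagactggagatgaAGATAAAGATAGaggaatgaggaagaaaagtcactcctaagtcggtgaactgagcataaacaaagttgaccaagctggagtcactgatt

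Cpa3: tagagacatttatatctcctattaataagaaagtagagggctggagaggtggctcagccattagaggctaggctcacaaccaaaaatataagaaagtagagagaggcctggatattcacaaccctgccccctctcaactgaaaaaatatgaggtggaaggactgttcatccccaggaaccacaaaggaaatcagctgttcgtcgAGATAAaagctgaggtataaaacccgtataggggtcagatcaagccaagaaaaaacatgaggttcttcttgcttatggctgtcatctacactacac

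Among the 13 mediator synthesis genes, that of histamine synthesis was the most abundant in each library. Hdc (chr2:126593667-126619299), which encodes histidine decarboxylase, was at 4035 CPM in the naive library (3717 to 4372), 10187 at 2 hours (9459 to 10957) and 5945 at 3 days (5737 to 6158). The 2-hour value lay above the others, and it was also above them in other cells (216, 1725 and 432) and in neutrophils (2332, 4289 and 2186). All log2 ratios are of levels with 10 CPM added, which shrinks those of low genes. On that scale Hdc differed by 1.33 between 2 hours and naive in basophil-marked cells and by 2.94 in other cells. The vesicle transporter gene Slc18a2 was at 895, 1138 and 1354 CPM in the order naive, 2 hours, 3 days. Alox5ap, which encodes the activator of leukotriene synthesis, was at 1234, 3344 and 1483. Ptgs2, an inducible prostaglandin synthase gene, was at 149, 1110.1 and 866 and was found in 10 of 19, 20 of 53 and 50 of 91 cells. Without the 2 marked cells it was at 719 at 3 days. The 13 mediator synthesis genes summed to 8320.2, 18857 and 11939, with a log2 ratio of the sums of 1.18 between 2 hours and naive (interval 1.07 to 1.29). In other cells the ratio of these sums was larger, at 1.88. The median log2 ratio of the list was 1.02 in basophil-marked cells and 0.96 in other cells. Of 6 members with at least 20 UMIs over both libraries, 3 were more than 2-fold higher at 2 hours (Hdc, Alox5ap and Ptgs2) and 0 lower, where 12.5% and 29.4% of all measured genes were.

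Basophil-marked cells carried cytokine transcripts in all 3 libraries, the naive one included. Il6 (chr5:30013114-30019981), which encodes a pleiotropic inflammatory cytokine, was at 3451 CPM in the naive library (3158 to 3765), 3063 at 2 hours (2670.1 to 3498) and 2688 at 3 days (2549 to 2833), so that the values differed by less than 1 on the log2 scale. Other cells held 3.45, 11.5 and 85.7 CPM. Il6 was detected in 18 of 19, 40 of 53 and 82 of 91 cells, or 94.7%, 75.5% and 90.1%. T cells of the same libraries, with a median of 10120, 1261 and 8466 UMIs, held an Il6 UMI in 0.543%, 0.295% and 6.82%. At 500 UMIs per cell the shares were 68.4%, 58.5% and 62.6% in basophil-marked cells and 0.181%, 0.074% and 0.78% in T cells. Thus Il6 was well above the T cell background in each library.

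Il4, the signature type 2 cytokine gene of basophils, was at 312 CPM in the naive library (228 to 416), 169 at 2 hours (87.1 to 295) and 226 at 3 days (187 to 270.4), against at most 1.16 in other cells. The intervals overlapped, with 12 UMIs in all at 2 hours. Il13, its type 2 partner, was at 122, 70.3 and 189, against at most 2.02, with 5 UMIs at 2 hours. Il1b, a proinflammatory cytokine gene also abundant in neutrophils and monocytes, was at 5065, 8164 and 9608, against 708, 4422 and 2566 elsewhere. Il4 and Il13 were thus near 0 in other cells, while Il1b was abundant there. Csf1, the macrophage growth factor gene, was at 1234 (naive), 1756 (2 hours) and 929 CPM (3 days), against 51.7, 164 and 110.5. Osm, a cytokine of the interleukin 6 family, was at 414, 829 and 721. Areg, an epidermal growth factor receptor ligand gene known in tissue repair, rested on few cells: 2 of 19, 4 of 53 and 15 of 91, the top cell holding 81%, 48.6% and 42.3% of its UMIs. Tnf had 4, 5 and 12 UMIs. Of 20 cytokine genes, 11 had at least 20 UMIs over the 2-hour and 3-day cells. Among these, 1 was more than 2-fold higher at 3 days, where 21.2% of all measured genes were, and 0 were lower, where 7.27% were. The gene past 2-fold was Il13, with a log2 ratio of 1.31 (0.16 to 3.08).

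Chemokine genes were abundant as well. Ccl3, which encodes a ligand of CCR1, was at 3431, 2473 and 4178 CPM in the order naive, 2 hours, 3 days, against 65.2, 187 and 136 in other cells. Ccl4, which encodes a closely related chemokine, was at 4862, 7293 and 7537, against 63.9, 572 and 183. Both were thus more than 2-fold above other cells in every library. Ccl6, a CCR1 ligand gene, was at 4238, 6548 and 5372. Ccl9, also a CCR1 ligand gene, was at 4529.6, 2108 and 5077. It was lowest at 2 hours, with a log2 ratio of -1.10 to naive (-1.37 to -0.85), and 1.26 between 3 days and 2 hours (1.03 to 1.52). Cxcl2, a neutrophil attractant gene, was highest at 2 hours in value, at 2109 (naive), 8445 (2 hours) and 2649 CPM (3 days), but other cells followed the same course at 534, 7847 and 1648. Ccl2, which attracts monocytes, had 0, 0 and 4 UMIs, and Ccl7 0, 0 and 1. Cxcl3 and Cxcl1 at 3 days came largely from the cell with macrophage genes, 191 of 211 and 38 of 43 UMIs. Of 12 chemokine genes, 8 were measured between 3 days and 2 hours, 3 were higher (Ccl9, Cxcl1 and Cxcl3, with 21.2% of all measured genes) and 1 was lower (Cxcl2, with 7.27%). Without the 2 marked cells, 7 were measured, 1 was higher (Ccl9) and 2 were lower (Cxcl2 and Cxcl3). Cxcl3 was then at 41 CPM at 3 days, against 141 at 2 hours, so that its log2 ratio went from 1.47 to -1.56, and Cxcl1 was at 10.2 and no longer measured.

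Transcripts differed in how many cells held them, counted at 500 UMIs per cell because of the depth gap. Hdc was found in 68.4%, 94.3% and 87.9% of basophil-marked cells in the order naive, 2 hours, 3 days, and in 0.906%, 4.44% and 2.83% of T cells. Cyp11a1 was found in 47.4%, 77.4% and 60.4%, and was not detected in T cells at this depth. Cd200r3 was found in 47.4%, 18.9% and 24.2% and Gzmb in 68.4%, 62.3% and 57.1%. Il4 was found in 26.3%, 3.77% and 11% and Ccl3 in 68.4%, 62.3% and 75.8%. Thus in value Hdc and Cyp11a1 were in a larger share of cells at 2 hours than in the naive library and Cd200r3 in a smaller one, over 53 and 19 cells. The shares in T cells were at most 0.148% for Cd200r3, 0.195% for Il4, 2.36% for Gzmb and 0.877% for Ccl3. Without thinning, Hdc was found in 19 of 19, 52 of 53 and 90 of 91 cells and Il4 in 16, 10 and 47, and Cyp11a1 in 19, 48 and 89.

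**Figure D3:**
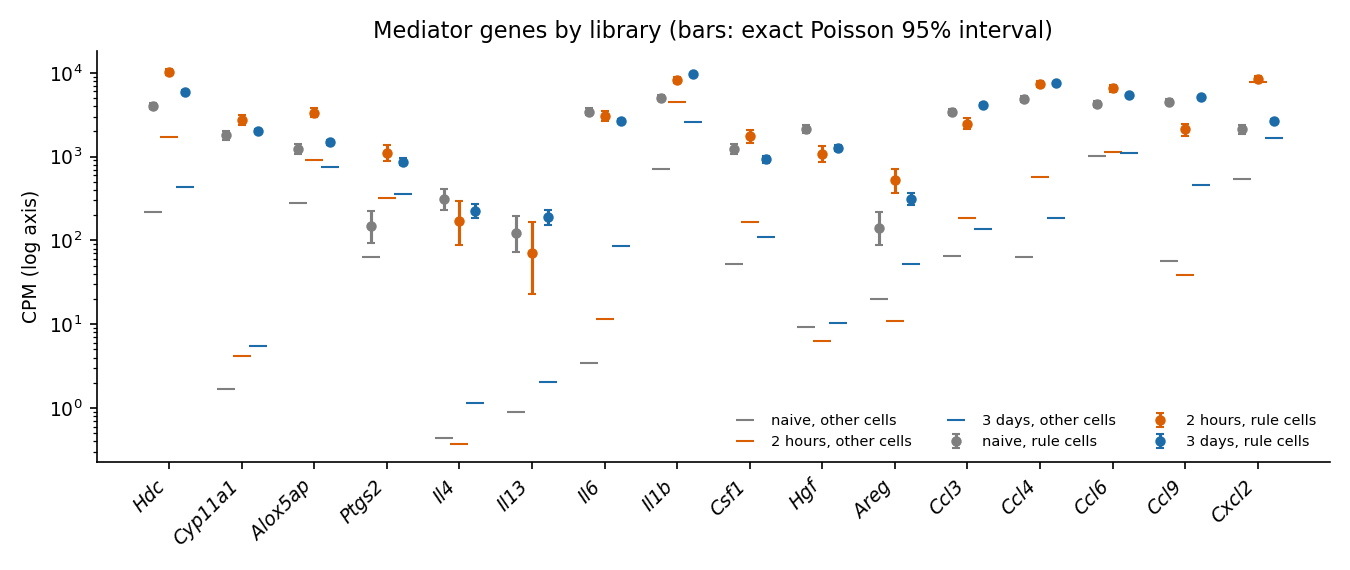
Level of 16 mediator genes in CPM (log axis) in basophil-marked cells of each library (points, with exact 95% Poisson intervals) and in the other kept cells (dashes). The dashes of Il4, Il13 and Cyp11a1 lie near the bottom and those of Cxcl2 and Il1b lie close to the points at 2 hours, and a gene at 0 in other cells has no dash.

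Granule genes were next. Gzmb, which encodes granzyme B, was at 4353 CPM in the naive library (4023 to 4704), 4988 at 2 hours (4483 to 5535) and 5195 at 3 days (5000.2 to 5395), against 168, 109 and 54.3 in other cells. The rule genes Mcpt8, the basophil protease mMCP-8, and Cpa3 are described as chosen: Mcpt8 was at 963, 773 and 1679. Cpa3 was at 563, 464 and 372. Of the 5 granule genes outside the rule, 2 were more than 2-fold higher at 3 days than at 2 hours (Prss34 and Ctsg, the cathepsin G gene), where 21.2% of all measured genes were, and 0 lower. Srgn, which encodes the granule proteoglycan serglycin, was at 11663, 6337 and 8449. Prss34 (chr17:25298394-25300165), the basophil protease mMCP-11, was restricted to a few cells. It was detected in 2 of 19 cells of the naive library, with 44 and 4 UMIs, in 0 of 53 at 2 hours, and in 10 of 91 at 3 days. The 0 allows a share of cells with a UMI of up to 5.66% by the limit of 3 counts, and at a median of 1207 UMIs per cell it sets no limit on cells that express the gene. At 3 days, the 2 highest cells, with 305 and 68 UMIs, held 89% of the 419 UMIs. The 10 cells had Mcpt8 at 5421 CPM, against 1082 in the other 81, and Fcer1a at 1205 against 432, both rule genes. One 3-day cell held 536 of the 1801 UMIs of the 6 basophil genes, Mcpt8 and Prss34 among them. Without it their sum was 2480 CPM in place of 3473, and Mcpt8 in the group of 10 was not recomputed. Gzmb ran the other way in value, at 3334 against 5492, and Ptgs2 was at 70.0 against 993. The cell with macrophage genes, which is among the 81, held 98 of the 449 Ptgs2 UMIs at 3 days. The grouping was made after the values were seen, and cells of 1 library are not replicates, so no test was made.

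The receptors by which basophils sense their surroundings were read next. Fcer1a, a rule gene, was at 325 CPM in the naive library (240.0 to 432), 84.3 at 2 hours (30.9 to 184) and 538 at 3 days (477 to 605), with 6 UMIs in 5 cells at 2 hours, and is described with no reading of its course. Fcer1g, the shared signalling chain of Fc receptors, was at 1336, 1630.0 and 1384. Among genes of IgE receptor signalling outside the rule, 0 of 8 measured were higher and 2 lower at 2 hours than in the naive library (Syk and Gab2), near the 29.4% lower over all measured genes. At 3 days against 2 hours, 1 of 11 was higher (Prkcb, with 21.2% of all measured genes) and 1 lower (Gab2, with 7.27%), joined by Lyn without the 2 marked cells. Csf2rb, the common beta chain for interleukin 3, interleukin 5 and GM-CSF, was at 1987, 2079.6 and 2416, and Il3ra, the interleukin 3 receptor alpha chain gene, at 156, 84.3 and 88.7. Il1rl1, the interleukin 33 receptor gene, was at 224, 126 and 239. Il18r1, an interleukin 18 receptor chain gene, was at 468, 323 and 420.3, and its partner Il18rap at 1193, 731 and 868. Of 18 cytokine receptor genes averaging at least 20 CPM, 7 were more than 2-fold above other cells in all 3 libraries, namely Csf2rb, Il3ra, Il1rl1, Il18r1, Il18rap, Csf2rb2 and Il7r, and 6 more than 2-fold below (Csf2ra, Il1r2, Il4ra, Il13ra1, Il6ra and Ifngr1), beside 6.19% and 11.4% of all genes in that contrast. The summed 19 cytokine receptor genes were at 6299, 6379 and 6375, and 0 of 16 measured were higher and 3 lower at 3 days than at 2 hours (Il1r2, Il2rg and Ifnar1), where 21.2% and 7.27% of all measured genes were. Among inhibitory receptors, Lilrb4a was at 1600.3, 3091 and 2059, against 224, 1275 and 513 elsewhere, and Cd200r1, a receptor for CD200, at 319 and 61.7 in the naive and 3-day libraries with no UMI at 2 hours. Of 9 inhibitory genes, 2 of 7 measured were higher at 3 days than at 2 hours (Cd200r1 and Milr1), near the 21.2% over all measured genes, and 0 lower. A count of 0 at 2 hours allows 42.2 CPM, so for Cd200r1 a 2-fold difference is not shown by that limit. Gab2, an adaptor downstream of the IgE receptor, was at 969.7, 225 and 82.9 and was more than 2-fold lower in each of the 3 contrasts, with log2 ratios of -3.69, -3.75 and -0.06 in other cells.

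Between libraries, the first contrast was 2 hours with naive. Over these cells, with 147473 and 71166 UMIs, 1600 genes were measured, meaning at least 20 UMIs over both libraries, of which 200 (12.5%) were more than 2-fold higher at 2 hours and 470 (29.4%) lower. A gene could be measured on the UMIs of the larger sum alone, which was the naive one. With each cell thinned to 500 UMIs the counts were 79 and 56, so that more genes were higher than lower. The larger sum was then that of 2 hours, with 53 cells against 19. Which direction led, and the shares of 12.5% and 29.4%, thus depended on the depth used, and the part of the minimum in this was not tested. Thinning gave 74 and 50 between 3 days and naive, and 98 and 73 between 3 days and 2 hours. Other cells of the same libraries moved alike for 90 of the 200 and 256 of the 470. The immediate early genes, which cells switch on within minutes of stimulation, stood out in counts: 11 of 16 measured were higher and 0 lower, with a median log2 ratio of 1.56 against -0.28 over all measured genes. The same 16 genes had a median of 1.60 in other cells. Egr1, a zinc finger factor, was at 129, 1096 and 260.3 CPM in the order naive, 2 hours, 3 days. Zfp36, which encodes the mRNA decay factor tristetraprolin, was at 278, 1813 and 320.1, and Nr4a1, an orphan nuclear receptor, at 88.2, 703 and 307. When the ratio of other cells was subtracted, 3 of the 16 were more than 2-fold higher, beside 13.1% of all measured genes.

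Cxcr4, Pim1 and Ddit4 were also highest at 2 hours. Cxcr4, the receptor of CXCL12 that holds leukocytes in marrow, was at 407 CPM in the naive library (310.5 to 524), 4735 at 2 hours (4243 to 5269) and 748 at 3 days (676 to 826). Its log2 ratio between 2 hours and naive was 3.51 (interval 3.14 to 3.96), and 2.92 in other cells. Pim1, a survival kinase gene induced by STAT5, was at 2549.6, 10356 and 2890.4, against 433, 4058 and 686, with ratios of 2.02 and 3.20. Ddit4, a gene induced by hypoxia and stress, was at 169.5, 1054 and 384, against 11, 42.7 and 26.7. Its log2 ratio was 2.57, against 1.33 in other cells, whose low levels make the 10 CPM added shrink their ratio more. Of 20 migration receptor genes, 6 of 12 measured were higher (Ccr1, Cxcr2, Cxcr4, Ptafr, C5ar1 and Selplg) and 1 lower (Itgb7), where 12.5% and 29.4% of all measured genes were. The median log2 ratio of the list was 0.93 in basophil-marked cells and 0.93 in other cells. The neutrophil genes, Cxcr2 among them, had a log2 ratio of the sums of 2.88 in the same contrast, and their part in this count was not tested. At 3 days against 2 hours, 2 of 16 were higher (S1pr4 and Itgb7) and 3 lower (Cxcr4, Ptafr and C5ar1), beside 21.2% and 7.27% over all measured genes. Ptgdr2, a prostaglandin D2 receptor gene, had no UMI in any library. Of 13 STAT5 and survival genes, 2 of 6 measured were higher at 2 hours than in the naive library, Pim1 and Cdkn1a, beside 12.5% over all measured genes, while Cish was highest at 3 days.

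By the largest log2 ratios between 2 hours and naive, the genes were Thbs1, Gm43305, Cd14, S100a8, Oser1, Hvcn1, Egr3, Lars2, Spry2 and H1f0. Thbs1 and Cd14 rested on 3 and 2 cells at 2 hours and S100a8 on 9, with 56.7% of its UMIs in 1 cell. Egr3, an early growth response factor, was found in 27 of 53 cells at 1124 CPM, against 67.8 in the naive library, and Spry2, a feedback inhibitor of receptor tyrosine kinases, in 35 at 1771 against 129. Hvcn1, the voltage-gated proton channel, differed by 4.04 while other cells differed by -1.56, with 1 and 19 UMIs behind it. At the other end stood Cmss1, Camk1d, Abtb2, Gphn, Kcnq5, Gm26740, Smad3, Prkg1, Slc9a9 and Gm43661. Cmss1 had 179 UMIs in naive lungs against 0 at 2 hours and 1 at 3 days, and other cells held 1151, 9.3 and 5.72 CPM. Slc24a3, a sodium, potassium and calcium exchanger, had 270 UMIs in 19 of 19 naive cells and 4 and 27 later, with at most 4.03 CPM in other cells. The naive file was written by Cell Ranger 7.1.0 and the others by 6.0.0, and version 7.1.0 counts intron reads by default. This part of the difference was not tested, so that contrasts with the naive library cannot be told apart from it.

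Between 3 days and naive, 3609 genes were measured, of which 395 (10.9%) were more than 2-fold higher and 460 (12.7%) lower. Among list genes, Cish, a STAT5 target that dampens cytokine signalling, was at 176, 169 and 374 CPM, with a log2 ratio of 1.04 (0.49 to 1.74). C3ar1, the receptor of complement C3a, was at 231, 295 and 505, with 1.10 against 2.45 in other cells. Immediate early genes gave 1 higher and 3 lower of 18 measured, or 2 and 2 without the 2 marked cells. Cytokine genes gave 2 higher of 11, Areg and Vegfa, and granule genes outside the rule 1 of 5, Prss34. The largest ratios included Mmp12, Thbs1, S100a8, Cd14, Ppbp, Lpl, S100a4, Apoe and Cstdc4. Of these, Mmp12, Lpl and S100a4 came mainly from the cell with macrophage genes and Ppbp only from the one with platelet genes. Without both cells, Lpl had 5 UMIs in 5 of 89 cells (10.2 CPM), S100a4 had 8 in 8, and Mmp12 and Ppbp none. Thbs1, the thrombospondin gene, had 55 of 109 UMIs outside them, in 31 cells. Cstdc4 was in 5 cells, none of them marked, with 49 of 53 UMIs in 1 cell, and was at 7.88 CPM (2.15 to 20.2) without it. Cd14, the lipopolysaccharide co-receptor gene, had 39 of 84 UMIs outside the 2 marked cells, in 16 cells. Apoe, an apolipoprotein gene of macrophages, held 67 UMIs over 36 of the remaining 89 cells. Tulp4, of the tubby family, had 5, 18 and 134 UMIs in 5, 13 and 64 cells in the order naive, 2 hours, 3 days, a log2 ratio of 2.61 between 3 days and naive against -0.81 in other cells. Slc7a2, an arginine transporter gene, had its 40 UMIs at 3 days in the cell with macrophage genes. The smallest were Cmss1, Maml2, Pde7b, Kcnq5, Gphn, Abtb2, Adgrv1, Prkg1, Camk1d and Slc24a3.

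Between 3 days and 2 hours, whose files share a Cell Ranger version, 3206 genes were measured, of which 680 (21.2%) were more than 2-fold higher at 3 days and 233 (7.27%) lower. The 3-day sums held 518618 UMIs and those at 2 hours 71166, so a gene could be measured on 3-day UMIs alone. A count of 0 at 2 hours allows 42.2 CPM, so the call of such a gene uses the 10 CPM added and is not a bound. Of the immediate early genes, 11 of 18 measured were lower and 1 higher, with a median log2 ratio of -1.10 against 0.23 over all measured genes and -0.93 for the same genes in other cells. With the other cells' ratio subtracted, 5 of the 18 were more than 2-fold lower, beside 10.4% of all measured genes. The summed level of the list was 17251, 30984 and 15040 in the order naive, 2 hours, 3 days. Jund, the most abundant in the naive library, was at 4767, 3246 and 2038, and Rgs1 at 3282, 5129 and 2495. Cxcr4 and Pim1 differed by -2.65 (-2.88 to -2.45) and -1.84 (-1.97 to -1.71), against -1.98 and -2.55 in other cells.

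Prss34 led the genes higher at 3 days and rested on 10 cells. Its level was 19.2 times the limit at 2 hours, which was 3 counts over the library. Without the cell that held 305 of its 419 UMIs, Prss34 was at 224 CPM, or 5.3 times that limit. Neither ratio is a lower bound on a difference between libraries, because 2 cells held 89% of the UMIs at 3 days. By cells, Prss34 was found in 10 of 91 at 3 days (5.4% to 19.3%) and 0 of 53 at 2 hours (0% to 6.72%). These intervals overlapped. Lpl, Mmp12, Gm26740, Cybb, Ppbp, Syne2, Psma1 and Ctla2a were among the genes that followed. Cybb had 59 of 67 UMIs in the cell with macrophage genes, and Ctla2a and Ppbp had all of theirs in the cell with platelet genes. Syne2, which encodes a nuclear envelope protein, and Psma1, a proteasome subunit gene, were spread over 37 and 42 of 91 cells, at 119.5 and 118 CPM, with no UMI at 2 hours. Mir22hg, a noncoding host transcript, had 42 UMIs in 31 cells at 3 days and 0 at 2 hours, while other cells went from 118 to 71.3. Because a 0 at 2 hours allows 42.2 CPM, a 2-fold difference is not shown for Mir22hg by that limit. Lowest at 3 days were Lig3, Bc1, Spry2, Uba6, Oser1, Loxl2, Klf2, C5ar2, Gm43305 and Abhd2. Uba6, which encodes a ubiquitin-activating enzyme, was at 632 CPM at 2 hours in 23 of 53 cells and at 48.2 at 3 days, a log2 ratio of -3.46 (-4.48 to -2.98), with -0.37 in other cells. Klf2, a quiescence factor of leukocytes, was at 189.9, 1307 and 175 in the order naive, 2 hours, 3 days, and other cells followed at 428, 1575 and 538. Fn1, the fibronectin gene, was at 281 and 910.1, or 703 without the marked cells, while other cells went from 39.6 to 1794. Serpinb2, which encodes a plasminogen activator inhibitor, was at 506 and 484, while other cells went from 14.6 to 189. At 2 hours, 27 of its 36 UMIs were in 1 of the 4 cells that held it, and without that cell the level was 129 CPM (58.8 to 244).

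**Figure D4:**
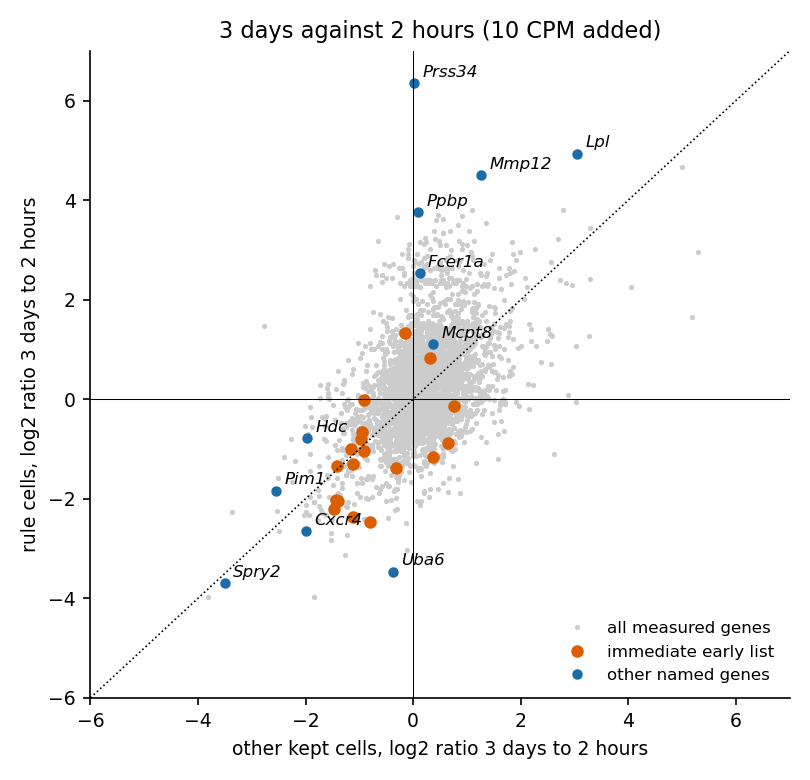
Log2 ratio of 3 days to 2 hours with 10 CPM added, in other kept cells (x axis) and in basophil-marked cells (y axis), for the 3206 measured genes, with the dotted line marking equal ratios. Most immediate early genes (orange) lie below 0 on both axes, and Mmp12, Lpl and Ppbp owe their height to 2 cells. Prss34 and Fcer1a lie near 0 on the x axis and high on the y axis, but Fcer1a is a rule gene whose course is not read.

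Transcription factors of the lineage were compared in the same way. Runx1, a regulator of blood lineages, was at 2461, 365 and 413 CPM and also lower in the transplant libraries in other cells, at 971, 192 and 182. Cebpa, whose factor favours basophil fate, was at 264, 197 and 239, and Cebpb at 1404, 3232 and 2597. Nfil3, a leucine zipper factor, was at 163, 337 and 241. Ikzf2, an Ikaros family factor, was at 637, 379 and 322. Both were above the level of other cells in all 3 libraries. Of such genes outside the rule, 2 of 10 measured were higher at 3 days than at 2 hours, Stat5b and Tal1, near the 21.2% over all measured genes, and 0 were lower. The 15 NF-kappaB and feedback genes were at a sum of 10476, 9991 and 10233, within -0.20 to 0.06 on the log2 scale between 2 hours and naive. In that contrast, 1 of 11 measured was higher (Nfkbid) and 3 were lower (Nfkb1, Relb and Tnip1), beside 12.5% and 29.4% of all measured genes. Nfkb1, which encodes a subunit of NF-kappaB, was at 2956, 1222 and 1905. Nfkbia, the inhibitor of NF-kappaB, was at 2109, 2923 and 2419.9, and Tnfaip3, the deubiquitinase A20, at 1810.5, 1728 and 1720.0, both more than 2-fold above other cells in all 3 libraries.

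Antibody counts were in the transplant files for 277 features, whose names are mostly those of human proteins. Basophil-marked cells held a median of 95 antibody UMIs at 2 hours and 135 at 3 days, against 55 and 83 in other cells. CD49f, the integrin alpha 6 chain, took 61.6% of their antibody UMIs at 2 hours (60.3% to 62.8%) and 70.3% at 3 days (69.6% to 71.1%). Other cells gave 18.1% and 34.1%, T cells 21.3% and 33.7%, and neutrophils 17.9% and 24.1%. In counts, the median cell held 59 and 91 CD49f UMIs, against 9 and 15 in other cells, so the difference was not one of share alone. The gene of this chain, Itga6, had 3 and 56 UMIs in basophil-marked cells. CD44, the hyaluronan receptor, took 33.2% and 17.5%, against 63.3% and 30.9%, with a median of 24 and 22 UMIs against 20 and 24. CD45R, the B cell form of CD45, took 0.136% and 0.0809% against 4.21% and 3.57%. As background, the isotype control with the largest share in basophil-marked cells took 0.119% at 2 hours (rat IgG1 lambda) and 0.11% at 3 days (rat IgG1 kappa), so CD45R was close to this level. The features FCER1A, CD117, CD49b, CD203c, CD123 and IgE were at 0 in basophil-marked cells, with at most 68 UMIs over all other cells of a library. CD3 was likewise at 0 in T cells and CD11b in neutrophils of both libraries, so a 0 on this panel is not read as absence of the protein.

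**Figure D5:**
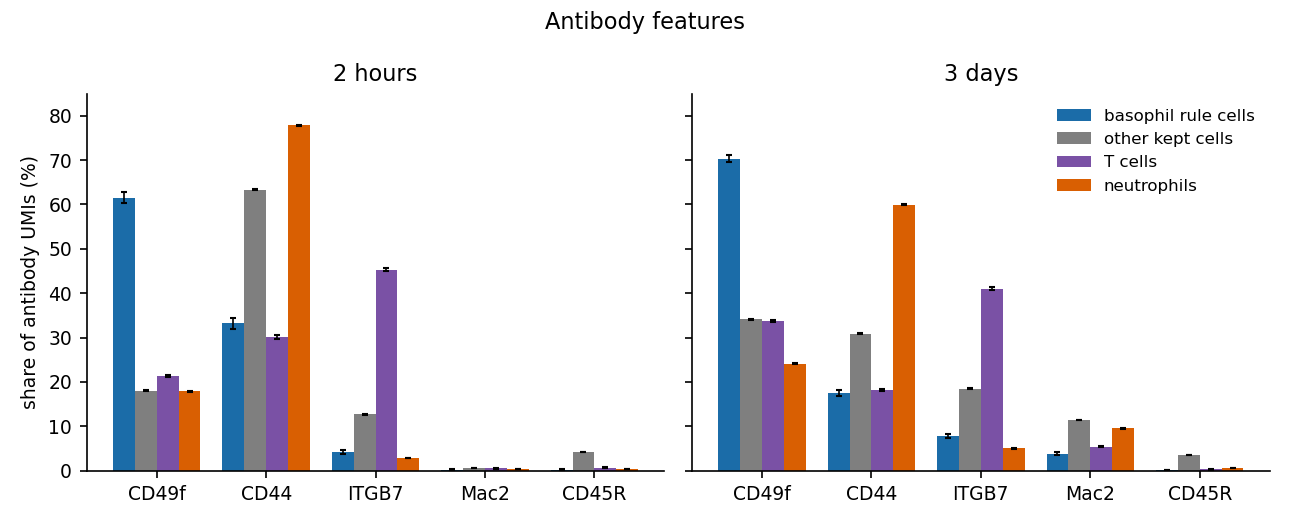
Share of antibody UMIs (y axis, percent) on 5 features in basophil-marked cells, other kept cells, T cells and neutrophils at 2 hours and 3 days, with exact 95% binomial intervals that cover counting error only. CD49f is the largest share in basophil-marked cells in both libraries, CD44 in neutrophils and ITGB7 in T cells.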

How the data were processed

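Single-cell RNA of 3 mouse lung libraries, 1 per group, was analysed. The deposited matrices hold raw UMI counts per gene and cell barcode, and antibody counts in the transplant libraries. Per the file headers they were written by Cell Ranger 7.1.0 (naive) and 6.0.0 (2 hours, 3 days). The submitters' processing notes name Cell Ranger 6, Seurat 4 and mm10. Sources differ on whether 5′ or 3′ chemistry was used, and the treatment of intron reads was not given in the sources used here.

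Files held 2921, 10328 and 9016 cells with 28538529, 10749100 and 70750470 UMIs (naive, 2 hours, 3 days), and 2628, 10283 and 8514 cells were kept. Doublets were called with Scrublet in scanpy 1.11.5 and kept in the main counts. UMIs were summed over cells per library and given as CPM. Neutrophils were cells other than T cells with 2% or more of UMIs on S100a8 and S100a9, and T cells had at least 2 UMIs of Cd3d, Cd3e and Cd3g and none of Cd79a. Between libraries, genes with at least 20 summed UMIs were compared by log2 ratio after adding 10 CPM, and more than 1 in size counted as past 2-fold. With 1 library per group there was no test. Shares have exact Clopper-Pearson and levels exact Poisson 95% intervals, and ratios have exact intervals conditional on the summed count. They cover counting error only, and mice were pooled, so spread between animals is unknown. Genes named were those of the lists, the 15 leading basophil-marked cells in all libraries, the 10 largest and smallest ratios per pair, and the 5 each way that most exceeded the other cells' ratio, and a few genes that these rules name are not reported here. The members and lists were chosen with earlier results of these data known. Promoter sequences are from RefSeq (GRCm38.p6) and gene positions from GENCODE on GRCm38. Python 3.11.15, numpy 2.4.6, scipy 1.17.1 and pandas 2.3.3 were used, and the scripts were tested on simulated data.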

Additional observations from a re-analysis of the deposited data

How the results depend on the processing

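Of the shares, counts and levels recomputed, 92 stayed within counting error or within 1.5 times under the alternatives, and 38 moved. The cause was not tested in any of them, beyond fewer or more genes passing where the minimum changed. Thinned to 500 UMIs per cell, the share of basophil-marked cells was 0.419% in naive lungs, 0.377% at 2 hours and 0.681% at 3 days. With all cells at or above 2% of UMIs on S100a8 and S100a9 out of the denominator, a choice made after seeing the data, it was 0.776% at 2 hours and 1.45% at 3 days. Other filters, UMIs of at least 2 of the 5 marker genes and doublet removal left the shares within their intervals, as did leaving out the 2 marked 3-day cells, also chosen after seeing the data.

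Counts of genes past 2-fold, given as higher and lower, were 200 and 470 between 2 hours and naive, 395 and 460 between 3 days and naive, and 680 and 233 between 3 days and 2 hours. With 50 CPM added in place of 10, the latter pairs were 114 and 289, and 250 and 138. With a minimum of 10 summed UMIs, the counts were 347 and 805, 657 and 697, and 1121 and 404 in the same order. With a minimum of 50, they were 97 and 209, 156 and 233, and 268 and 119. Thinned to 500 UMIs per cell, they were 79 and 56, 74 and 50, and 98 and 73. With the log2 ratio of the other cells subtracted, 279 genes were lower between 2 hours and naive and 244 between 3 days and naive. Immediate early genes past 2-fold were then 3 higher between 2 hours and naive and 5 lower between 3 days and 2 hours, beside 13.1% and 10.4% of all measured genes.

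Cd200r3 thinned to 500 UMIs was at 1579 CPM in the naive library and 659 at 3 days. CD49f at 2 hours was 66.0% as a mean over cells, 65.7% with the stricter rule and 68.0% without doublets, and at 3 days 66.5% and 68.9% under the first pair. For single genes, 515 values stayed within those limits, 60 moved and 5 that were past 2-fold changed direction. Of the values that stayed or moved, 11 had a main ratio within 2-fold and another sign, 9 of them with the other cells' log2 ratio subtracted. The 5 all arose under that subtraction: between 2 hours and naive, Hdc gave -1.60 and Pim1 -1.18. Between 3 days and naive, Fn1 gave -1.48, and between 3 days and 2 hours, Pim1 gave 0.71 and Fn1 -3.52.

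No paired analysis was possible because each group has 1 library. With 53 cells and 71166 UMIs, 2 hours sets the limit of detection, since a count of 0 there allows 42.2 CPM. Counts without rule genes and levels without a gene's top cell were added after seeing the data. Contrasts with the naive library cannot be told apart from the Cell Ranger version.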

Other observations

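Other gene groups were counted in the same cells. Of 15 genes of glycolysis and hypoxia, 4 of 10 measured were higher and 0 lower at 2 hours than in the naive library (Gapdh, Ldha, Vegfa and Ddit4), beside 12.5% and 29.4% over all measured genes, with a median log2 ratio of 0.76 against -0.28 over all measured genes and 0.39 for the list in other cells. Their sum was 2502, 4623 and 3546 CPM in the naive, 2-hour and 3-day libraries. Ldha, which encodes a lactate dehydrogenase chain, was at 244, 590.2 and 334, the naive level being 137 CPM (82.3 to 213) without the cell that held 17 of its 36 UMIs. Hk2 and Pfkp, genes of early glycolysis, were more than 2-fold above other cells in all 3 libraries. Of 10 heat shock genes, 2 of 5 measured were higher at 2 hours (Hsp90aa1 and Dnajb1), against 12.5% over all measured genes, and Dnaja1, a cochaperone gene, was at 1078, 1771 and 1643, above other cells in each library.

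Interferon-response genes summed to 9689.9, 10764 and 9323, of which Ifitm1, an antiviral membrane protein gene, gave 6652, 8417 and 7240.4. Of 13, Isg15, Rsad2 and Ifitm3 were more than 2-fold lower than in the naive library, as 3 of 5 measured at 2 hours and 3 of 8 at 3 days, beside 29.4% and 12.7% of all measured genes. Isg15 was at 563, 183 and 125, against 72.8, 233 and 103 in other cells. The naive levels rested on 1 cell each, with 69 of 83 Isg15, 21 of 22 Rsad2 and 44 of 68 Ifitm3 UMIs. Without that cell they were 98.9, 7.06 and 169.5 CPM in the same order. Naive Isg15 then lay below its 183 and 125 in the later libraries, so its direction turned in value. Naive Rsad2 then lay below its 65.6 CPM at 3 days, so that direction turned as well. With all naive cells, the log2 ratio of Rsad2 at 3 days was -1.07. Without the 2 marked cells it was -0.999, which is within 2-fold. Genes of the cell cycle were low, with a sum of 74.6, 70.3 and 104 over 10 genes against 423, 195 and 340.2 in other cells. Mki67, a marker of dividing cells, had 5, 0 and 3 UMIs in basophil-marked cells. Lars2, which encodes the mitochondrial leucyl-tRNA synthetase, was at 379.7, 5241 and 1238, against 440.1, 4486 and 1247 in other cells, and was found in 53 of 53 cells at 2 hours.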
